A study of Macaca mulatta with 24 samples.

Results

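The 47 genes described here copy DNA or supply its building blocks: the origin recognition and MCM loading factors, the proteins that fire an origin, the polymerases and primase, the sliding clamp and its loader, fragment-joining and fork factors, the histone chaperone CAF-1 and UHRF1, and the enzymes that make deoxynucleotides. They were chosen by name. Every non-control probe that carries one of these gene names was taken, and where a gene had several the brightest one stood for it. Of the 47 genes, 39 had a probe, with 64 probes between them, out of 33825 gene names on the array. The 8 genes without a probe of that name were ORC1, ORC2, CCNE1, POLE, POLD1, RFC5, LIG1 and RRM2.

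Replication starts when ORC, CDC6 and CDT1 load the MCM helicase on DNA in G1, and it is set off in S phase by the kinases CDK2 and CDC7, which bring CDC45 and the GINS complex to the helicase. Polymerase alpha with primase begins each strand, and the epsilon and delta polymerases extend it on the PCNA clamp. Resting blood leukocytes hold little of this machinery, most of whose genes are turned on by E2F factors as a cell enters the cycle, whereas proliferating lymphocytes and marrow-derived precursors hold much of it.

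The samples were whole blood of adult rhesus macaques (Macaca mulatta), 4 males and 3 females by the labels, drawn before irradiation (7 arrays, 0 Gy, called day 0 in the labels) and 3 days (4 arrays), 5 days (6 arrays) and 7 days (7 arrays) after 4 Gy to the whole body. The labels name X-rays and the study's methods a cobalt gamma source. The study's methods give the animals as of Chinese origin, and the arrays analysed here hold no unirradiated animals sampled over the same days, so time in the study and irradiation cannot be told apart. RNA was kept in a blood stabiliser and cleared of globin transcripts, and 1 array of a rhesus design was run per animal and time. The replicate number marks the animal, and the day 3, day 5 and day 7 comparisons all share the same 7 pre-irradiation arrays.

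Between 48.3% and 61.2% of probes were well above background on an array, and arrays of one group correlated at r = 0.931 to 0.978 over the 27138 probes tested. Levels are log2 processed signals brought to a common array median, and a gene is called higher or lower where limma's test gave a Benjamini-Hochberg adjusted p under 0.005 over all probes tested. Of the 39 genes, 31 were well above background on all 24 arrays. The arrays were scanned in 2 sessions: the first held 6 pre-irradiation and 6 day 7 arrays, and the second held the remaining pre-irradiation array, 1 day 7 array and all arrays of days 3 and 5. So day 7 could be compared with pre-irradiation within a session, but for days 3 and 5 scan session and time after exposure rest on 1 pre-irradiation array. Blood is known to lose lymphocytes and young red cells after such a dose, and in bulk RNA fewer cells of a type and less RNA per cell cannot be told apart. All 9 B-cell markers fell at days 3 and 5 and 8 at day 7, and 8 to 10 of 12 erythroid markers fell on each day. Of all probes, 8.02%, 9.58% and 7.27% were called lower on those days. None of 8 T-cell or 8 NK-cell markers passed the test.

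A rise or fall is read through 60-base probes, and for 4 of the genes the probes themselves matter to the result, so some are shown here from the scanner files, 5′ to 3′. The scanner headers name the rheMac2 build, and whether the probe coordinates were updated since is not given in the sources used here. The probes in TYMS and MCM5 show that the rise was read at separate places of the transcript. Those in MCM3 and CHAF1B passed the test where the brightest probe did not. Each can be read through without a stop codon in at least 1 frame, and by the listed coordinates those that cover more than their own length on the genome cross an intron.

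TYMS, chr18:13431317-13431376 (minus strand): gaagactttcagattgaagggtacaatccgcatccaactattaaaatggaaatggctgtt
TYMS, chr18:13433530-13435116 (minus strand): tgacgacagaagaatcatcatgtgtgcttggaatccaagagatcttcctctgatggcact
MCM5, chr10:79336842-79337713 (plus strand): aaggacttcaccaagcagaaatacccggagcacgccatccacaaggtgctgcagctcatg
MCM5, chr10:79328930-79329355 (plus strand): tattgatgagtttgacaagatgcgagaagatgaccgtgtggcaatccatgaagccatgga
MCM3, chr4:51929280-51930983 (minus strand): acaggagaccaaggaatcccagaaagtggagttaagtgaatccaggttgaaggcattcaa
CHAF1B, chr3:10180101-10181054 (minus strand): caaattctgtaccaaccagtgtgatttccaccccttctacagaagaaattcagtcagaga

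None of these probes held a 20-base stretch found, on either strand, in a probe of another name.

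Few of the replication genes passed the test at day 3 or day 5, with TYMS higher on both days, and more were higher at day 7. At day 7, 12 of the 39 genes were higher than before irradiation and none was lower, against 3.6% of all probes called higher and 7.27% called lower. The 12 were UHRF1, CCNE2, TYMS, CDT1, TK1, MCM4, CHAF1A, POLA1, MCM5, CDC7, PCNA and GINS4. Leaving aside CCNE2 and POLA1, for which only a bound can be given, their differences ran from 0.90 for GINS4 to 2.33 for UHRF1, and the median over the 39 genes was 0.84 with 37 above 0, against 0.02 over all probes, of which 51.2% were above 0. At day 5, TYMS and POLA2 were higher and none was lower, against 7.16% and 9.58% of all probes. The median was 0.49 with 31 above 0. At day 3, TYMS was higher and GINS1 lower, against 5.43% and 8.02%, and the median was -0.28 with 27 of 39 below 0. That median was -0.43 without animal 7, -0.11 with the scan session as a block and 0.05 with the slide as a block. At days 3 and 5 the counts were under those shares of 39 genes, and at day 7 the higher count was above it. In 9 genes every day 7 array lay above every pre-irradiation array, against 2.57% of all probes, and CCNE2 and POLA1 are among the 9, tested only through the groups where they were high. At an adjusted p under 0.05 the counts were 4 higher and 6 lower for day 3, 9 higher for day 5 and 24 higher for day 7, against 16.3%, 19.4%, 17.4% and 13.2% of all probes.

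Fitted on background-corrected mean signals (normexp), only TYMS passed at day 7 and at day 3 and none at day 5. Of all probes, 1.16% passed at day 7, 0.512% at day 3 and 0.881% at day 5. A block by animal left 7 of the 12, namely CDT1, GINS4, CDC7, CCNE2, PCNA, UHRF1 and TYMS, against 2.54% of all probes higher. GINS1 at day 3 did not pass with that block (adjusted p = 0.0152), where 1.56% of all probes were lower. With the first scan session alone, which leaves out the animal numbered 5, 7 also passed, with CHAF1A in place of CDC7 (adjusted p = 0.00587). Of all probes, 2.38% were higher there. With the scan session as a block none passed at day 3 or day 5, against 0.136% and 1.41% of all probes. Against the 1 pre-irradiation array of the second session, GINS1 differed by -1.47 at day 3 and POLA2 by 0.90 at day 5.

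**Figure D1:**
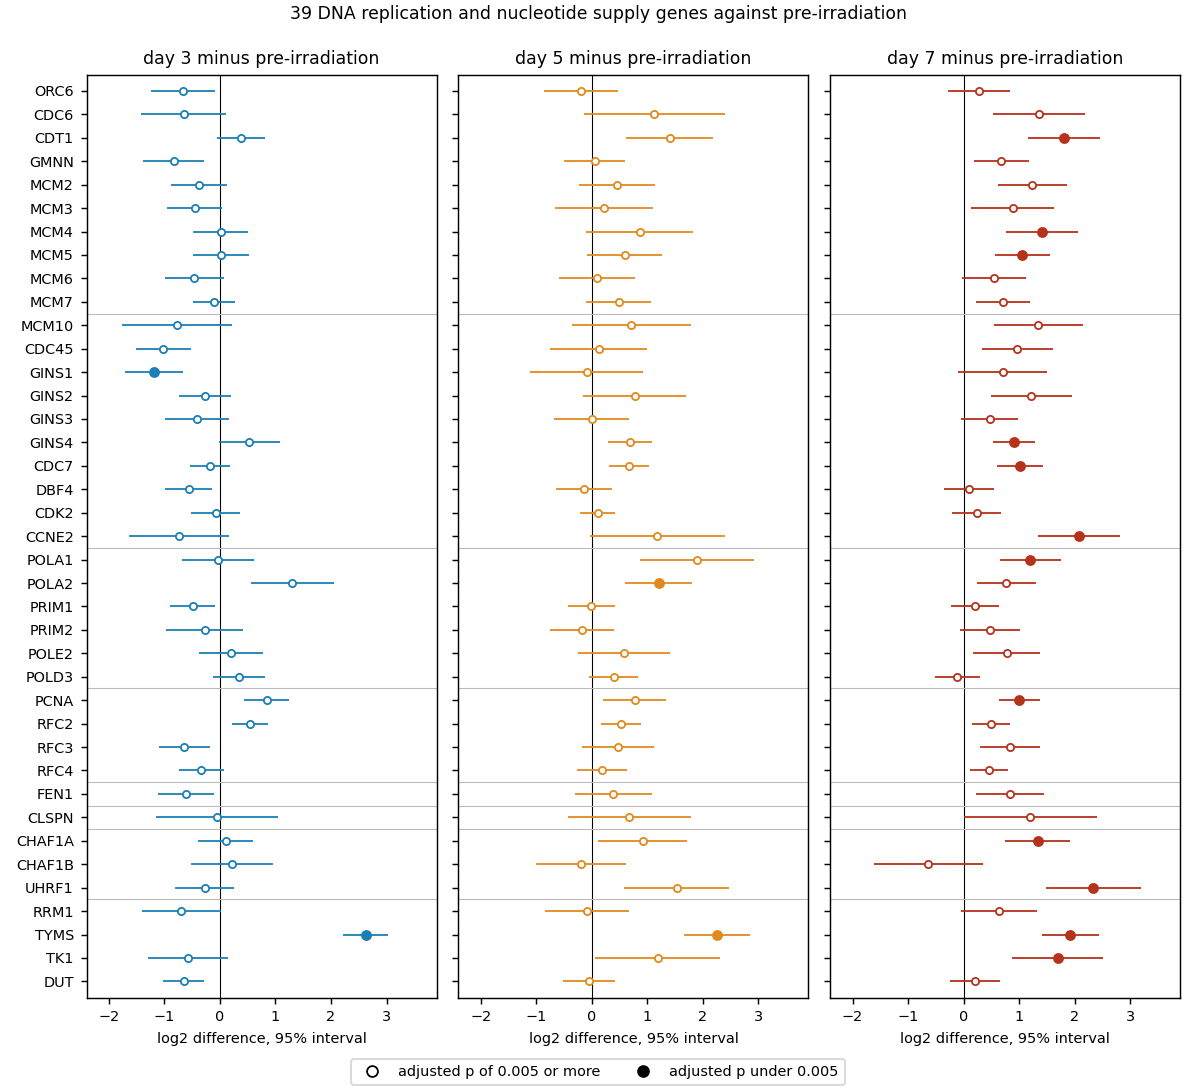
Log2 difference from pre-irradiation for each of the 39 genes at day 3, day 5 and day 7, with its 95% interval from limma. Genes are grouped by role between the grey lines and filled points have an adjusted p under 0.005. CCNE2, MCM10 and POLA1, not well above background before irradiation, are drawn at their fitted values. At day 7 all but 2 points lie right of 0, and TYMS stands far right in all 3 panels.

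Of the 10 genes with a probe listed under the pre-replication complex, CDT1, MCM4 and MCM5 rose at day 7. None passed at day 3 or day 5. The 10 include geminin (GMNN), which restrains loading. The median of the 10 went from -0.42 at day 3 through 0.47 to 0.96 at day 7, where all 10 were above 0. CDT1, which brings the MCM helicase to origins, lay between 7.27 and 7.99 before irradiation (median 7.79). It read 7.69, 8.05, 8.31 and 8.08 on the day 3 arrays, ran from 8.11 to 10.92 at day 5 (median 8.83) and from 8.55 to 10.71 at day 7 (median 9.48). The day 5 and day 7 arrays all lay above the 7 pre-irradiation arrays. The difference was 1.40 ± 0.36 (SE, n = 6 against 7, limma adjusted p = 0.00864) at day 5, which missed the threshold, and 1.81 ± 0.30 (n = 7 against 7, adjusted p = 0.000596) at day 7, or 3.5-fold.

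Of the 6 helicase subunits MCM2 to MCM7, MCM4 and MCM5 rose at day 7. MCM4 ran from 10.76 to 11.47 before irradiation (median 10.97). It read 10.56, 10.59, 11.53 and 11.41 on the day 3 arrays, then 10.66 to 14.13 at day 5 (median 11.38) and 11.74 to 14.05 at day 7 (median 12.18). Its day 7 arrays all lay above the pre-irradiation arrays, while those of day 5 spanned them. The day 7 difference was 1.41 ± 0.30 (adjusted p = 0.00331). MCM5 ran from 12.08 to 12.86 before irradiation (median 12.73) and read 11.92, 12.60, 12.88 and 13.05 at day 3. It ran from 12.57 to 14.79 at day 5 (median 12.89) and from 13.12 to 14.74 at day 7 (median 13.65). Day 7 and pre-irradiation did not overlap, with a difference of 1.05 ± 0.23 (adjusted p = 0.00403). That call was lost when any of the 7 animals was left out, with the difference between 0.78 and 1.16. The other 4 subunits missed the threshold at day 7: MCM2 at 1.24 (adjusted p = 0.00579), MCM3 at 0.88 (0.0742), MCM7 at 0.71 (0.0314) and MCM6 at 0.54 (0.154).

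CDC6, the ATPase that works with ORC, gave 1.36 ± 0.39 at day 7 (adjusted p = 0.0181) and was higher than before irradiation in 7 of 7 animals. ORC6, a subunit of the origin recognition complex, differed by -0.67 at day 3 and 0.27 at day 7, neither past the threshold. Geminin (GMNN), which holds CDT1 in check, stood at -0.83 at day 3 (adjusted p = 0.0243), lower in 4 of 4 animals, and at 0.68 at day 7 (adjusted p = 0.0436), higher in 7 of 7.

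Of the 10 genes that fire an origin, CCNE2, CDC7 and GINS4 rose at day 7 and GINS1 fell at day 3. Their median was -0.49 at day 3, with 9 of 10 below 0, and 0.94 at day 7, with all 10 above 0. Cyclin E2 (CCNE2), a partner of CDK2 at the start of S phase, was well above background on no array before irradiation or at day 3, on 3 of 6 at day 5 and on 6 of 7 at day 7. It ran from 3.47 to 5.16 before irradiation (median 4.58), read 2.86, 3.12, 4.46 and 4.85 at day 3, and ran from 4.18 to 7.96 at day 5 (median 5.03) and from 5.94 to 8.24 at day 7 (median 6.14). All day 7 arrays lay above the pre-irradiation arrays. CCNE2 was at least 4.06-fold higher at day 7 (limma adjusted p = 0.000575), where the dim group counts as no lower than the dimmest probe well above background on each array, and its other 2 probes were also called, 1 of which shared 49 of its bases with a probe of another gene name. CCNE2 met the filter of 4 arrays only through days 5 and 7, as did POLA1 and MCM10, so its place and that of POLA1 among the 12 calls rest on the groups where they were high.

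CDC7, the kinase that triggers the loaded helicase, ran from 6.91 to 7.61 before irradiation (median 7.13) and read 7.00, 6.95, 7.01 and 7.01 at day 3. It ran from 7.42 to 8.18 at day 5 (median 7.80) and from 7.58 to 8.68 at day 7 (median 8.17). Only 1 day 7 array fell within the pre-irradiation range, and the difference was 1.01 ± 0.19 (adjusted p = 0.00149). The CDC7 call held in 3 of the 7 fits that each left out 1 animal. DBF4, the partner of CDC7, differed by 0.09 at day 7 (95% interval -0.36 to 0.54, adjusted p = 0.782). CDK2 gave 0.23 (95% interval -0.21 to 0.67).

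Of the 4 GINS subunits, which sit in one complex on the helicase, GINS4 rose at day 7 and GINS1 fell at day 3. GINS4 ran from 5.56 to 6.35 before irradiation (median 6.10) and read 6.39, 7.20, 5.86 and 6.59 at day 3. It ran from 6.36 to 7.11 at day 5 (median 6.55) and from 6.33 to 7.21 at day 7 (median 6.91). The day 7 arrays lay above all pre-irradiation arrays except for 1, and the difference was 0.90 ± 0.17 (adjusted p = 0.00159). The GINS4 call held in 4 of the 7 fits that each left out 1 animal. GINS1 ran from 5.81 to 7.09 before irradiation (median 6.41) and read 4.96, 5.11, 5.60 and 5.06 at day 3, so those groups did not overlap. It ran from 5.37 to 8.66 at day 5 (median 5.64) and from 5.61 to 8.59 at day 7 (median 6.95), across the pre-irradiation range. The day 3 difference was -1.19 ± 0.24 (adjusted p = 0.00314). GINS1 was well above background on only 2 of the 4 day 3 arrays, and its call was lost when any of 5 animals was left out, the animal numbered 5 among them (adjusted p = 0.00567). GINS2 gave 1.22 ± 0.34 (adjusted p = 0.016) and GINS3 0.47 (adjusted p = 0.161) at day 7.

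CDC45, the third part of the active helicase, read 6.91, 7.60, 7.78 and 8.01 at day 3, all below the 7 pre-irradiation arrays (8.31 to 9.12). The difference of -1.02 ± 0.23 just missed the threshold (adjusted p = 0.00564), and at day 7 it was 0.97 (adjusted p = 0.0267). MCM10, which helps the helicase to start, was well above background on no array before irradiation or at day 3, on 4 of 6 at day 5 and on 6 of 7 at day 7. It was at least 2.45-fold higher at day 7, and its adjusted p of 0.0161 missed the threshold.

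Of the 6 polymerase and primase genes, POLA2 rose at day 5 and POLA1 at day 7. Their median went from 0.09 at day 3 through 0.49 to 0.62 at day 7. POLA1, the catalytic subunit of polymerase alpha, was well above background on no array before irradiation or at day 3 and on 5 arrays each at days 5 and 7. It ran from 3.28 to 4.58 before irradiation (median 4.16), read 4.44, 4.32, 3.10 and 4.28 at day 3, and ran from 4.51 to 8.02 at day 5 (median 5.68) and from 4.74 to 6.43 at day 7 (median 5.16). Day 7 did not overlap pre-irradiation. POLA1 was at least 3.05-fold higher at day 5 (adjusted p = 0.00771, which missed the threshold) and at least 1.88-fold higher at day 7 (adjusted p = 0.0035).

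POLA2, the regulatory subunit of polymerase alpha, ran from 9.07 to 10.27 before irradiation (median 9.41) and read 11.89, 10.25, 10.24 and 10.95 at day 3. It ran from 10.07 to 11.69 at day 5 (median 10.72) and from 9.82 to 11.20 at day 7 (median 10.15). The groups overlapped on each day, though it was higher than before irradiation in 4 of 4, 6 of 6 and 7 of 7 animals. The differences were 1.30 ± 0.34 (adjusted p = 0.0126), 1.20 ± 0.28 (0.00484, called) and 0.76 ± 0.25 (0.0325), and the day 5 call was lost when any of the animals numbered 2 to 7 was left out. The primase subunits PRIM1 and PRIM2 gave 0.21 and 0.48 at day 7, POLE2 of polymerase epsilon 0.77 and POLD3 of polymerase delta -0.12, none past the threshold.

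Of the clamp and its loader, PCNA rose at day 7. PCNA, the ring that holds polymerases on DNA and also a known p53 target, ran from 12.46 to 13.03 before irradiation (median 12.90) and read 13.50, 13.52, 13.45 and 14.10 at day 3. It ran from 12.84 to 14.58 at day 5 (median 13.35) and from 13.40 to 14.45 at day 7 (median 13.72). The arrays of days 3 and 7 all lay above the pre-irradiation arrays. The difference was 0.84 ± 0.19 at day 3, which just missed the threshold (adjusted p = 0.00524), and 1.001 ± 0.17 at day 7 (adjusted p = 0.000737). Its probe, the only one for PCNA, shared 35 of its bases with 1 probe that carries no gene name. RFC2 of the clamp loader showed a like size on every day without passing the threshold, with 0.54 (adjusted p = 0.0167), 0.52 (0.0246) and 0.49 (0.0303). RFC3 and RFC4 stood at -0.64 and -0.34 at day 3 and at 0.83 and 0.46 at day 7, none past the threshold.

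FEN1, the nuclease that trims Okazaki fragments, went from -0.61 at day 3 to 0.84 at day 7 (adjusted p = 0.0405). CLSPN, which guards stalled forks, was well above background on 2 arrays before irradiation, none at day 3 and 5 at day 7, and its day 7 difference of 1.20 had an adjusted p of 0.128.

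UHRF1 and CHAF1A, which pass DNA methylation and histones on to new DNA, rose at day 7. UHRF1 ran from 6.05 to 7.06 before irradiation (median 6.66) and read 5.70, 6.40, 6.85 and 6.46 at day 3. It ran from 7.10 to 10.29 at day 5 (median 7.67) and from 7.60 to 10.70 at day 7 (median 9.08). All arrays of days 5 and 7 lay above those before irradiation. The differences were 1.53 ± 0.44 at day 5 (adjusted p = 0.0154) and 2.33 ± 0.40 at day 7 (adjusted p = 0.000712), or 5.04-fold, and within the first scan session 2.52 (adjusted p = 0.0017). CHAF1A, the large CAF-1 subunit, ran from 9.26 to 9.68 before irradiation (median 9.53) and read 8.82, 9.47, 9.97 and 10.04 at day 3. It ran from 9.64 to 12.30 at day 5 (median 9.85) and from 10.13 to 12.26 at day 7 (median 10.54), clear of the pre-irradiation arrays, with a difference of 1.33 ± 0.28 (adjusted p = 0.00263). The CHAF1A call held in 3 of the 7 fits that each left out 1 animal.

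Thymidylate synthase (TYMS), which makes the thymidine nucleotide de novo, was the gene of the set that rose on all 3 days. It ran from 9.13 to 9.78 before irradiation (median 9.35) and read 11.92, 12.37, 11.67 and 12.30 at day 3. It ran from 10.96 to 12.90 at day 5 (median 11.42) and from 10.47 to 12.45 at day 7 (median 11.26). Every irradiated array lay above every pre-irradiation array. The differences were 2.63 ± 0.19 (adjusted p = 8.24e-06), 2.25 ± 0.28 (5.03e-05) and 1.92 ± 0.24 (6.09e-05), or 6.17-fold, 4.75-fold and 3.78-fold. Within the second scan session, against its 1 pre-irradiation array, they were 2.29 at day 3 and 1.91 at day 5. Within the first session the day 7 difference was 1.92 (adjusted p = 0.000383).

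Of the other 3 nucleotide genes none passed at day 3, where all 3 were below 0. TK1, the S-phase thymidine kinase that salvages thymidine, ran from 9.58 to 11.05 before irradiation (median 10.34) and read 8.90, 10.04, 10.61 and 9.37 at day 3. It ran from 9.997 to 14.17 at day 5 (median 11.15) and from 10.60 to 13.63 at day 7 (median 12.15). Day 3 lay within or under the pre-irradiation range and 6 of 7 day 7 arrays lay above it, with a difference of 1.69 ± 0.38 (adjusted p = 0.00463). RRM1, the large subunit of ribonucleotide reductase, gave -0.70 at day 3 and 0.63 at day 7, neither past the threshold. DUT, which clears dUTP, read 9.93, 10.01, 10.18 and 10.21 at day 3, all below the pre-irradiation arrays (10.32 to 11.16), but -0.65 ± 0.17 had an adjusted p of 0.0123.

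**Figure D2:**
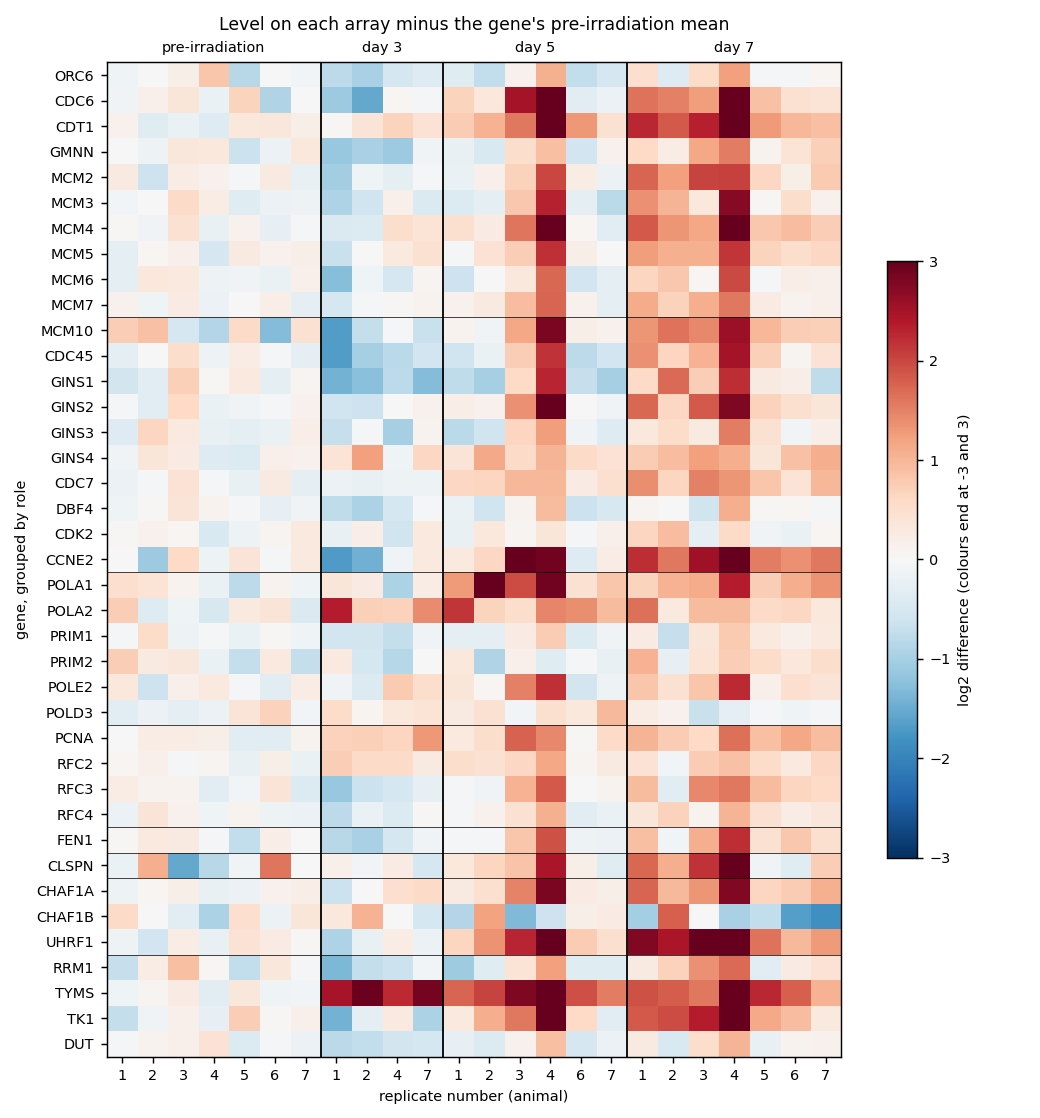
Each column is 1 array, labelled by animal, and each row a gene. Colour gives the log2 level minus the gene's mean over the 7 pre-irradiation arrays. Animal 4 is red in nearly every row at days 5 and 7, the TYMS row is red on all irradiated arrays, and day 3 is mostly pale or blue.

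Several genes had more than 1 probe, and 14 had at least 2 that could be tested. The 4 TYMS probes agreed: each was called on each day, with day 3 differences of 2.38 to 2.87, day 5 differences of 2.19 to 2.50 and day 7 differences of 1.92 to 2.30. The 3 MCM5 probes were each called at day 7, at 1.05, 1.27 and 1.47. The 3 CDC7 probes were called too, at 1.01, at 1.13 and, for a probe well above background on no pre-irradiation array, at least 2.53-fold higher. That probe met the filter of 4 arrays only through the irradiated groups. Both TK1 probes were called, at 1.69 and 1.56. The second CHAF1A probe missed the threshold at day 7, at 1.25 (limma adjusted p = 0.00555).

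Probes differed in sign for 3 genes at day 3 (CDC7, CDK2 and MCM3), 2 at day 5 (CHAF1B and RRM1) and 3 at day 7 (CHAF1B, GINS3 and POLD3). The widest gaps were those of MCM3 and CHAF1B. The dimmer MCM3 probe, shown above, ran from 6.38 to 7.10 before irradiation. On the day 3 arrays it ran from 7.15 to 8.24, on those of day 5 from 7.79 to 10.72 and on those of day 7 from 8.49 to 9.72. Its irradiated arrays all lay above its pre-irradiation arrays. It was called at day 5 (1.76, adjusted p = 0.00299) and day 7 (2.16, adjusted p = 5.79e-06), where the brightest MCM3 probe gave 0.22 and 0.88. For CHAF1B, the small CAF-1 subunit, the brightest probe and its near neighbour gave -0.63 and -1.06 at day 7, neither past the threshold. Those 2 probes shared 20-base stretches with 49 and 46 probes of other names, so their values cannot be assigned to CHAF1B alone, and the value counted for CHAF1B among the 39 genes is of this kind. The intron-crossing probe of CHAF1B, whose bases no other probe shared, was well above background on no pre-irradiation array and on 4 of 7 at day 7, and it was at least 2.41-fold higher (adjusted p = 0.00442). It met the filter of 4 arrays only through the irradiated groups. A second RFC3 probe was called lower at day 3 (-0.93, adjusted p = 0.00373). Counting a gene by its probe with the smallest p, which cannot lower a count, raised the day 7 count from 12 to 14. The day 5 count rose from 2 to 4 and the day 3 count from 2 to 3. No like count over all genes of the array was made. CHAF1B at day 7 and CDC7 at day 5 were added through probes that met the filter only through the irradiated groups.

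**Figure D3:**
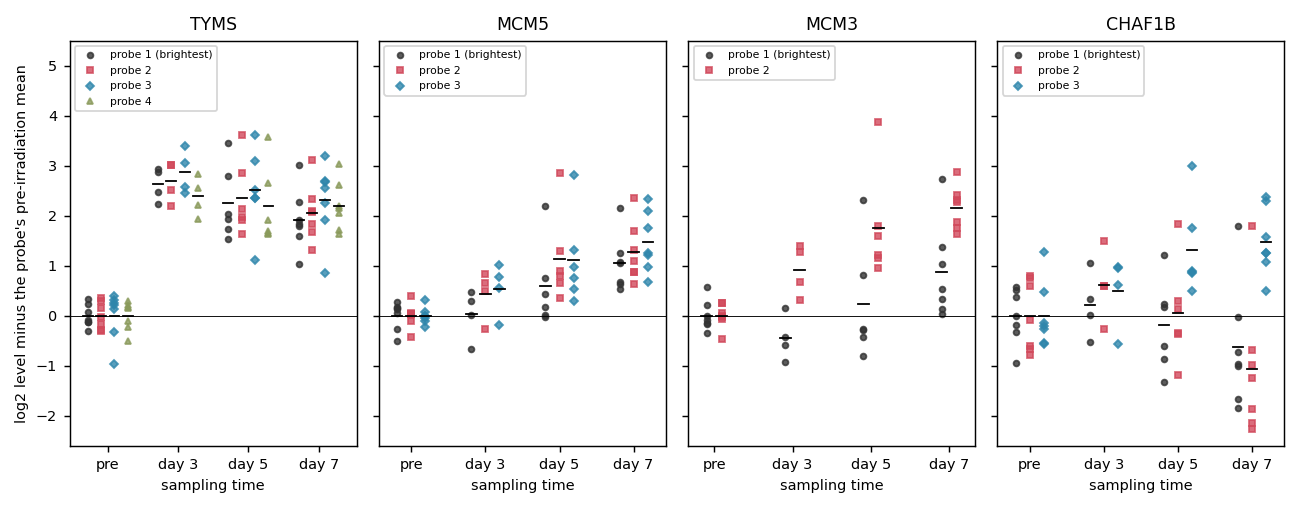
Log2 level on each array minus the probe's pre-irradiation mean, for every probe of TYMS, MCM5, MCM3 and CHAF1B. Probes are numbered from the brightest, and black bars are group means. The 4 TYMS probes rise together at day 3, while at day 7 the means of the second MCM3 probe and the third CHAF1B probe lie above that of the brightest probe.

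The animals differed in when the genes rose. Averaged over the 39 genes, the level relative to the pre-irradiation mean was -0.15 to 0.17 before irradiation and -0.44, -0.21, -0.09 and 0.09 on the day 3 arrays of animals 1, 2, 4 and 7. At day 5 it was 1.86 in animal 4 and 0.94 in animal 3, against 0.02 to 0.32 in the other 4 animals. On the day 5 array of animal 4, 36 of 39 genes lay above all pre-irradiation arrays, and on that of animal 3, 25 did, against 6 to 15 on the others. Of all probes, 24.1% and 22.6% did on those 2 arrays and 23.5% to 27.1% on the others. At day 7 the 7 arrays ran from 0.43 to 1.91, again highest in animal 4, and every one of them lay above the pre-irradiation arrays. The day 7 mean was above the animal's own pre-irradiation mean in 7 of 7 animals. Leaving out animal 4 moved the median over the 39 genes from 0.49 to 0.18 at day 5 and from 0.84 to 0.65 at day 7, and left TYMS at day 5 and 7 genes at day 7. The 28 mitosis genes listed for comparison showed the same array on top, at 10.5 at day 5 and 10.6 at day 7 in animal 4, against 7.77 to 8.44 before irradiation. TYMS ordered the animals otherwise at day 3, where animal 2 was highest.

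**Figure D4:**
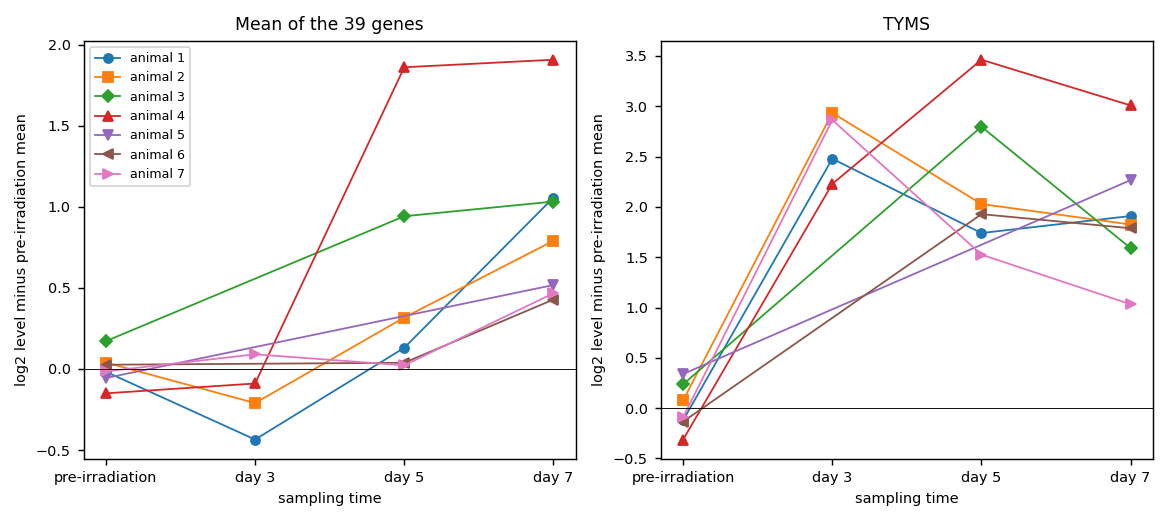
Left, the mean of the 39 genes, and right, TYMS, as log2 level minus the pre-irradiation mean at each sampling time, with 1 line per animal. Animals 3, 5 and 6 have no day 3 array and animal 5 no day 5 array. Animal 4 reaches 1.86 at day 5 on the left, while on the right every line is above its start from day 3 on.

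Set against each other, the irradiated days gave no call among the 39 genes. Between day 7 and day 3, no member passed, against 0.317% of all probes higher and 0.947% lower, while 29 were higher and 2 lower at an unadjusted p under 0.05, against 16.5% and 16.2% of all probes. The median was 1.19 with 34 of 39 above 0. All 4 day 3 arrays were scanned in the second session and 6 of 7 day 7 arrays in the first, so day and session nearly coincide here: the median was 0.77 with the session as a block and 0.43 with the slide as a block, and no probe of the array passed in either. In 19 genes all 7 day 7 arrays lay above all 4 day 3 arrays, against 5.87% of all probes, and CCNE2, POLA1 and MCM10 are among the 19, tested only through the later groups where they were high. CCNE2 was at least 6.28-fold higher (adjusted p = 0.00579), MCM10 at least 3.7-fold (0.00597), CDC7 differed by 1.19 (0.00816), UHRF1 by 2.61 (0.00953), CDC45 by 1.98 (0.00953) and GMNN by 1.51 (0.00973). Fitted with all 4 groups in 1 model, 8 genes passed: GMNN, MCM2, MCM10, CDC45, CDC7, CCNE2, RFC3 and UHRF1, each higher, against 3.49% of all probes higher in that model. TYMS stood at -0.71 (adjusted p = 0.146).

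Between day 5 and day 3 no member passed, against 0% of all probes higher and 0.0184% lower, and at an unadjusted p under 0.05, 12 were higher and none lower, against 3.95% and 6.1% of all probes. Between day 7 and day 5 no member passed either, against 0% higher and 0.00368% lower, and at that unadjusted threshold 2 were higher and 1 lower, against 9.28% and 11.5%. Their medians were 0.61 and 0.41. The first was 0.31 with the slide as a block, and the second was 0.25 without animal 1 and 0.02 with the scan session as a block.

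Other genes of the same processes, listed by function, were compared in the same fits. Of all probes, 5.43% were called higher and 8.02% lower at day 3, 7.16% and 9.58% at day 5, and 3.6% and 7.27% at day 7. Of 35 further replication genes tested, on day 3 none was higher and 5 were lower, on day 5 none and 4, and on day 7 1 and 3, with medians of -0.33, -0.08 and 0.14. WDHD1, a replisome adaptor, was higher at day 7 (1.35, adjusted p = 0.00311). ASF1A, a histone chaperone, was lower on each day (-1.70, -1.30 and -1.30), as was POLE3, a small polymerase epsilon subunit (-1.01, -1.09 and -1.04). Of 28 further nucleotide genes, on day 3 7 were lower and 1 higher, on day 5 3 and 1, and on day 7 2 and none. NME2, a nucleoside diphosphate kinase, was lower on each day (-1.74, -1.53 and -1.48), and TK2, the mitochondrial thymidine kinase, was higher at day 3 (1.86) and day 5 (1.80), from a level well above background on only 3 of 7 pre-irradiation arrays. Of 28 mitosis genes, 6 were lower on day 3, none passed on day 5 and 4 were higher on day 7, among them MKI67 (2.23), PLK1 (1.70) and TOP2A (1.65), and their medians were -0.69, 0.47 and 1.12. Among the mitosis genes called lower at day 3, the largest falls were those of DLGAP5 (-1.71), UBE2C (-1.68) and CDK1 (-1.55).

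Marker levels of blood cell types moved at the same times, and their part in the changes above was not tested. The shares of all probes called on each day are given above. The mean over 9 B-cell markers was 11.0 to 11.3 before irradiation and 7.32 to 8.62 on all irradiated arrays. The mean over 12 erythroid markers ran from 11.7 to 13.1 before irradiation. On the day 3 arrays it ran from 8.93 to 10.5, on those of day 5 from 7.03 to 8.17 and on those of day 7 from 6.80 to 10.7. All 8 platelet markers were higher at day 3, and 2 were at day 5 and none at day 7. The mean over 8 T-cell markers was 11.1 to 11.7 before irradiation and 11.2 to 11.9 at day 7, and none of 6 progenitor markers passed the test against pre-irradiation. Of 7 monocyte markers 2 were higher at day 3, 2 at day 5 and none at day 7, and of 7 mature neutrophil markers 2, 2 and 1 were. Of 9 neutrophil precursor markers 1 was higher and 1 lower at day 3, and 2 were lower on each later day. Of 7 plasma-cell markers 3 were lower at day 3, 3 were lower and 1 higher at day 5, and none passed at day 7.

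A few of the 8 genes without a probe of their name are named only in a probe's description, outside the rule. By description, cyclin E1 (CCNE1) read 7.72 to 8.01 at day 3 against 8.52 to 9.44 before irradiation and was lower (-1.03 ± 0.19, adjusted p = 0.00187), and its day 7 difference of 0.87 did not pass. DNA ligase LIG1 differed by 1.17 at day 3 (adjusted p = 0.0129) and 0.25 at day 7. The 2 probes described as POLD1, the catalytic subunit of polymerase delta, disagreed: the brighter one was lower on all 3 days (-3.22, -3.50 and -3.24) and the other gave -0.57, -0.28 and 0.23 with none called. The B-cell markers, with medians of -2.92, -3.31 and -3.49, fell on the same days as the brighter probe, and their part in it was not tested. The 3 POLE probes were too dim to test.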

How the data were processed

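Whole-blood RNA of rhesus macaques was hybridised to 1-colour Agilent rhesus arrays, 1 array per sample, 24 in all. The labels and scanner files name this rhesus design, while the study's methods name a human one. Per the labels the slides were read with Agilent Feature Extraction 10.7, while the scanner files name a later version. The authors deposited the processed signal intensity of each spot, background-subtracted by that software, and a table of log2 values. Set against the scanner files, the deposited log2 table equals, for most probes it holds, the log2 processed signal shifted by 1 constant per array. Its correlation with that signal was 0.999967 or higher on every array. From 0.265% to 7.26% of the cells of a column were empty, and the table had column medians of 7.37 to 7.70. This table was used as an alternative.

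From the intensities, outlier spots were left out, log2 values averaged per probe, and each array shifted to the median array (shifts of -2.03 to 0.87). Of 43603 probes, 27138 passed a filter, that of being well above background on 4 or more of the 24, and were tested with limma 3.58.1 in R 4.3.3, 2 groups at a time, with Benjamini-Hochberg adjustment over all probes and the threshold of 0.005 that the study's methods use. Only the main fits against pre-irradiation were tried on simulated data, and the outcome is not reported here. The fits between irradiated days, the alternatives and the sex interaction fit were not tried in this way. Groups come from the labels. Precision is limited by how many arrays there are. The brightest probe by mean level stood for a gene. All 39 genes are accounted for, and for those called the day 3 values are given array by array and the larger groups by lowest, median and highest. From other lists only genes among the 3 called ones with the largest difference of a comparison were named. No spot of these probes was saturated. The members, gene lists and markers were chosen with earlier results of these data known.

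The replicate number marks the animal in the study's animal list. Arrays with the same number deviated together, with correlations of 0.132 to 0.648 and every pair over 0.1. For unlike numbers the median was -0.093 to -0.05. The pre-irradiation and day 7 arrays of each number share a slide, so animal and slide cannot be told apart there. The alternatives were other scaling, background correction, filters, tests, blocks by animal, slide and scan session, single sessions, and each animal left out. The sequence of 1 further probe is not reported here.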

Additional observations from a re-analysis of the deposited data

Results flagged for a closer look

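Of 160 sets of array values examined, 14 held 1 array far from the others of its group, and chance gives about 1 in 20. Of the 14, 9 were arrays of animal 4, and at day 7 it was the highest for CDC6 (9.52), MCM6 (13.9), GINS3 (7.16), DBF4 (10.4), POLA1 (6.43), POLE2 (9.68) and the mean of the 39 genes (10.3). At day 5 it was the highest for MCM5 (14.79). At day 3, POLA1 was low in animal 4 (3.10), where it is not well above background, and animal 7 was high for GMNN (8.07) and PCNA (14.1). PRIM1 was high in animal 2 before irradiation (8.67) and low in the same animal at day 7 (7.40), and FEN1 was low in animal 5 before irradiation (6.22).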

How the results depend on the processing

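No difference of a called gene from pre-irradiation changed sign under any alternative that could be fitted, while among the genes not called 21 did at day 3, 18 at day 5 and 4 at day 7, DBF4 among the last (-0.06 without animal 4). The day 3 count of 2 genes became 1 with normexp background correction, the deposited log2 table, 1 fit over all 4 groups, unmoderated variances or the replicate block. It became 0 with the scan session or the slide as a block and 10 at an adjusted p under 0.05. Of all probes, 13.5% passed in the main fit. In those settings 0.512%, 15.4%, 15.7%, 9.43%, 2.77%, 0.136%, 0% and 35.7% did, in that order. Leaving out each animal gave 1 to 2, where 3.18% to 12.9% of all probes passed. The day 5 count of 2 became 0 with normexp or with the session as a block, 1 with unmoderated variances, and 4 with 1 fit over all groups or with any probe of a gene. It became 5 without a filter on dim probes and 9 at an adjusted p under 0.05. Of all probes, 16.7% passed in the main fit, 0.881% with normexp, 1.41% with the session block and 14.5% with unmoderated variances. The share was 17.8% with 1 fit, 9.84% without the filter and 35.5% at an adjusted p under 0.05. Leaving out each animal gave 1 to 2, where 9.997% to 15.8% of all probes passed. The day 7 count of 12 became 1 with normexp, 7 with 1 fit over all groups, with unmoderated variances, with the replicate block or in session 1 alone, 0 in session 2 alone, which holds 1 array of each of those groups, assumed to vary like the arrays of days 3 and 5, so that this 0 says little, and 24 at an adjusted p under 0.05. Leaving out each animal gave 6 to 9, where 1.4% to 3.11% of all probes were higher. That share was 3.6% in the main fit, 0.0884% with normexp, 5.24% with 1 fit over all groups and 2.83% with unmoderated variances. It was 2.54% with the replicate block, 2.38% in session 1 alone and 13.2% at an adjusted p under 0.05. UHRF1, TYMS, CDT1, CCNE2 and PCNA kept their day 7 call whichever animal was left out. GINS4 kept it in 4 of 7 such fits and CDC7 and CHAF1A in 3 of 7. MCM5 lost it in all 7, and MCM4, POLA1 and TK1 in 6 of 7. Between day 7 and day 3 the count of 0 became 1 with quantile normalization, 8 with 1 fit over all groups and 21 at an adjusted p under 0.05, and it was 0 to 0 when each animal was left out. Of all probes, 1.14% passed with quantile normalization, 8.03% with 1 fit and 16% at an adjusted p under 0.05. The median difference between those days, 1.19, was 0.47 with normexp and 0.43 with the slide as a block. The causes were not tested. The slide block could not be fitted for day 5 against pre-irradiation or for day 7 against day 5, and session 1 alone could be fitted for day 7 against pre-irradiation only. Probes near background give a bound, not a fold.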

Other observations

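The question of sex was asked after the values were seen. At day 7 the mean of the 39 genes stood 0.79 to 1.91 above the pre-irradiation mean in the 4 males and 0.43 to 0.52 in the 3 females, so the sexes did not overlap. In an interaction fit with limma, none of the 39 genes and no probe of the array passed at day 7, the lowest adjusted p among the 39 was 0.302, and 9 had an unadjusted p under 0.05. The change was larger in males for 31 of the 39 genes, with a median difference of 0.66 (log2) against 0.01 over all probes. At day 5 the median was 0.65, with 37 of 39 larger in males (4 males, 2 females), and none passed. The 4 male day 5 arrays were on 1 slide and the 2 female ones on another, so sex and slide cannot be told apart there.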
